A study of Caenorhabditis elegans with 2 samples.

Results

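Intronic EFL-1 summits are peaks whose highest point lay inside a protein-coding gene, between exons and away from the gene starts. They numbered 811 of the 4835 peaks of the reproducible set, or 16.8% (exact 95% binomial interval 15.7 to 17.9). A peak was taken when its summit lay within a protein-coding gene body, in no annotated exon of any gene, and outside the window from 500 bp upstream to 200 bp downstream of every protein-coding gene start. The last interval is termed the promoter window. Bases that meet the same rule make up 31.1% of the nuclear genome. Of the other peaks, 2401 had a summit in a promoter window and 1377 lay outside protein-coding genes and promoter windows. A further 134 lay on a protein-coding exon. The rest (2.32% of the set) lay in an intron but on an exon of a non-coding gene, and were not among the 811. Of these, 61 lay in genes annotated as ncRNA and no other non-coding class. A further 17 lay in both an ncRNA and a tRNA gene, and 15 in a tRNA gene alone.

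The data come from chromatin immunoprecipitation and sequencing (ChIP-seq) of EFL-1 in whole wild-type hermaphrodite Caenorhabditis elegans of strain N2, collected as L1 larvae grown at 26 °C. Fragments in the libraries ran from 150 to 350 bp, per the labels. The only group had 2 biological replicates from separate biosamples, with no second condition and no test between conditions. Signal from different larval tissues was pooled, so neither the cell type nor the share of cells bound can be read from a peak.

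EFL-1 is an E2F-family transcription factor of C. elegans that binds DNA with a DP partner. Within the DREAM complex it represses cell cycle and germline genes in resting somatic cells, and E2F factors are best known for binding close to gene starts. Introns can hold enhancers, the start sites of shorter transcripts and whole small RNA genes, so an intronic summit need not act on the gene that contains it.

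To show what the strongest intronic summits with an E2F match look like, 61 bases around the nearest match are given for 6 of the highest-scoring ones, with rnr-1 added as the highest-scoring host among replication genes. The E2F consensus searched was TTCCCGC or TTCGCGC, and also TTGCCGC or TTGGCGC, on either strand within 100 bp of the summit. Sequence is RefSeq WBcel235 (ce11), read 5′ to 3′ on the strand where the match reads forward, and capitals mark every match on either strand. The rnr-1 stretch holds 2 matches that face opposite ways.
B0432.10, II:285770-285830, minus strand: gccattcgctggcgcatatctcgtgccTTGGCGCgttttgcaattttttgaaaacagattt
pptr-2, V:11029498-11029558, minus strand: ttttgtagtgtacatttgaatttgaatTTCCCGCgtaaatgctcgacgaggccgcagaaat
ari-1.4, IV:15526672-15526732, minus strand: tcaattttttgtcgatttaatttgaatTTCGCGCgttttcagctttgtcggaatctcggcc
scc-2, II:255269-255329, minus strand: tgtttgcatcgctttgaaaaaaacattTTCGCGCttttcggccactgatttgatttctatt
epg-9, IV:2602045-2602105, plus strand: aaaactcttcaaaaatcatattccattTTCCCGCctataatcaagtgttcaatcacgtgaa
Y75B8A.25, III:12278961-12279021, plus strand: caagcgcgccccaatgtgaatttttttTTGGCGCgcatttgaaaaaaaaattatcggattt
rnr-1, III:9228347-9228407, minus strand: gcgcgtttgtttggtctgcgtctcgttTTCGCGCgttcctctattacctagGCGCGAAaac

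The whole searched window of the B0432.10 summit shows 2 matches that face opposite ways, in capitals on the plus strand.
B0432.10, II:285712-285912, plus strand: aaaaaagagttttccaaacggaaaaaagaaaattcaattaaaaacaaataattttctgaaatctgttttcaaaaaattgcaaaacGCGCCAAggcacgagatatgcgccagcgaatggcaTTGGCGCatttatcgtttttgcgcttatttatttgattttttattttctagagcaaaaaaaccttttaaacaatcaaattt

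The highest-scoring intronic summits without an E2F match are shown around the summit base, which is in capitals, on the plus strand. The 2 summits of Y65A5A.2 lie 517 bp apart, and their searched windows share an exact run of 25 bases in the same orientation.
wht-3, III:4150999-4151059: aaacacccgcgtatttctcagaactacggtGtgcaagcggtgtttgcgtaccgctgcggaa
Y65A5A.2, IV:16415250-16415310: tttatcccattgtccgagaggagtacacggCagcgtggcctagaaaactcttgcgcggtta
Y65A5A.2, IV:16415767-16415827: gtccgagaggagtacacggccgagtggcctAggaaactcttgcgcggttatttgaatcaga

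Short runs of alternating G and A (GAGAGAG on either strand) were the commoner match. They are shown for 4 summits, again as 61 bases centred on the match nearest the summit, with matches in capitals. These 4 were chosen after the values were seen, from the highest-scoring ones with a match.
lem-4, IV:854525-854585, minus strand: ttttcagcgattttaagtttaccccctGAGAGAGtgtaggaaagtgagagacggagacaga
zfp-1, III:8802176-8802236, plus strand: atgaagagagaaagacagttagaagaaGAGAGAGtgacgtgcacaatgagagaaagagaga
nova-1, V:18079338-18079398, minus strand: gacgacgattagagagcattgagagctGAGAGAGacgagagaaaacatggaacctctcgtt
lron-13, III:13530238-13530298, minus strand: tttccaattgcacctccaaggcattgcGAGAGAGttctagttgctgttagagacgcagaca

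Intronic summits scored lower than promoter-window summits. The authors gave each peak a score of unstated scale, used here only to rank peaks of the same list. The median score was 132 for intronic summits, with quartiles of 81.02 and 245, against 293 for promoter-window summits, with quartiles of 131 and 782. The median intronic summit scored above 38.4% of the reproducible set and the median promoter-window summit above 65.1%. Summits outside protein-coding genes had a median of 130.2, close to the intronic value. None of the 100 highest-scoring peaks was intronic, which with the exact interval allows a share of up to 3.62%. Intronic summits made up 11 of the top 300 peaks and 69 of the top 1000. Ranked by score in bins of 967 peaks, the intronic share was 6.93% in the highest bin, then 14.2%, 18.8% and 20.1%, and 23.9% in the lowest. Among the 4835 pooled peaks just below the reproducible set it was 29.4% (28.1 to 30.7). For comparison, bases that meet the rule are 31.1% of the nuclear genome, so the share came nearer to this value as scores fell.

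**Figure D1:**
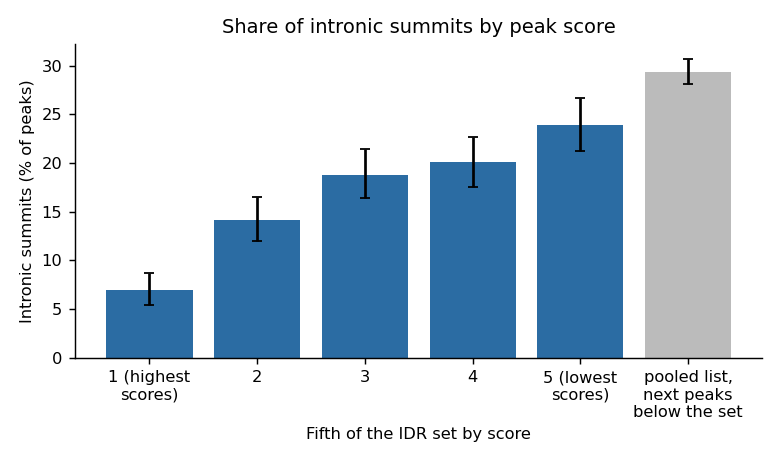
Percent of peaks with an intronic summit in each bin of 967 peaks of the reproducible (IDR) set, ordered by score, and in the 4835 pooled peaks just below it (grey); bars are shares and error bars exact 95% binomial intervals. The share is 6.93% in the highest-scoring bin, 23.9% in the lowest and 29.4% below the set.

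The strongest intronic summit lay in wht-3, which encodes an ABC transporter of the White family, at III:4150807-4151285. Its score was 3510.15, the rank 108 among all peaks, with 1077 in replicate 1 and 2437 in replicate 2. It sat in the intron of rank 2 of the host, 137 bp upstream of the start of a shorter wht-3 transcript. The uncharacterised gene B0432.10 followed at II:285607-286027 with 3227 in the pooled list, 1260.5 in replicate 1 and 1982 in replicate 2. That summit lay in the first intron, 124 bp upstream of an internal transcript start, and 12 bp from the centre of an E2F match. Y65A5A.2, also uncharacterised, held 2 of the 5 strongest summits, with 3134 and 2439, both in its intron of rank 3. In all these summits the replicate 2 score was above that of replicate 1.

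The hosts of the other summits among the top 20 had varied functions. Predicted transport is the role of slc-36.4, an amino acid transporter family member, with a score of 2676 (811 in replicate 1 and 1878 in replicate 2). Its own promoter window held a weaker peak of 256. lem-4, which carries a LEM domain typical of nuclear envelope proteins, had 2381 (782 and 1596 in replicates 1 and 2), 127 bp upstream of an internal start. pptr-2, a B56-type regulatory subunit of protein phosphatase 2A, had 2258 (861 and 1406 in replicates 1 and 2), with an E2F match 16 bp from the summit. scc-2, the loader of cohesin onto chromosomes, had 1998 (814.5 and 1197 in replicates 1 and 2). That summit was in a first intron of 8369 bp, 158 bp upstream of an internal start. In each of the 4 the replicate 2 score was the higher one, as in 96.7% of intronic summits matched in both lists.

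Among genes of regulation and protein turnover, set-18, a SET-domain methyltransferase gene, had 2092, and ari-1.4, of the Ariadne family of ubiquitin ligases, had 2007. spop-1, a substrate adaptor for a ubiquitin ligase, had 1606, and epg-9, an autophagy gene, had 1453. The chromatin protein gene zfp-1, the homologue of AF10, had 1182. Among metabolic and motor genes, dhc-4, a dynein heavy chain gene, had 1407 and rpom-1, the mitochondrial RNA polymerase gene, had 1310. gly-9, a glycosyltransferase gene, had 1251, and fath-1, a fatty acid hydroxylase gene, had 1214. T26C5.3 with 2095, Y111B2A.12 with 1769 and Y75B8A.25 with 1443 complete the top 20. The dhc-4 summit lay within 200 bp of an snRNA gene annotated as R07E5.16, a name that snRNA genes elsewhere also carry. The dhc-4 and rpom-1 summits each share an exact run of 31 bases with another intronic summit, so reads may not be assigned uniquely there. Among the hosts of this paragraph, gly-9 and Y75B8A.25 had a promoter-window peak of like score, at 1099 and 1241. With smg-3, a nonsense-mediated decay factor with 1174 and an E2F match 21 bp from the summit, the 10 highest-scoring intronic summits with that match are all named.

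Nearly all intronic summits were found in each replicate. A summit within 100 bp was present in both replicate lists for 792 of the 811 (97.7%), against 98.4% of promoter-window summits. Of the rest, 15 were matched in replicate 2 only and 4 in replicate 1 only. Over all peaks of the reproducible set the share matched in both was 97.6%. The set was itself chosen on both replicates, so a match was largely fixed beforehand. The replicate lists hold 28817 and 30000 entries and include background, so presence there is also a weak condition. A stricter count asks for a match among the top 4835 peaks of each replicate, which 77.8% of intronic, 89.2% of promoter-window and 78.1% of summits outside protein-coding genes met. Among members at or below the median score of the reproducible set it was 65.9% of intronic and 69.9% of promoter-window summits.

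Over the full range of scores, intronic summits ranked alike in both replicates, but less so among the weak ones. Across the 792 summits matched in both, Spearman's rho was 0.847 and Pearson's r of log10 scores 0.889. The 2363 promoter-window summits gave 0.962 and 0.964, and summits outside protein-coding genes gave 0.856 and 0.903. These points share their libraries and were selected on both replicates, and the correlations are across peaks. The log2 ratio of replicate 2 over replicate 1 had a median of 0.93 and an SD of 0.59 at intronic summits, against 0.98 and 0.49 at promoter windows, and the SD outside protein-coding genes was 0.57. The replicate lists were scored separately, so the median ratio is not a difference in binding. The scatter was larger among weak intronic summits. The SD was 0.43 for the 289 members above the median score of the reproducible set and 0.66 for the other 522. At promoter windows the same split gave SDs of 0.36 and 0.65, so among low scores the classes were nearly alike. Spearman's rho was 0.863 above the median score and 0.497 in the rest at intronic summits. At promoter windows it was 0.955 and 0.517. Each part of the split spans a narrower range of scores than the whole.

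**Figure D2:**
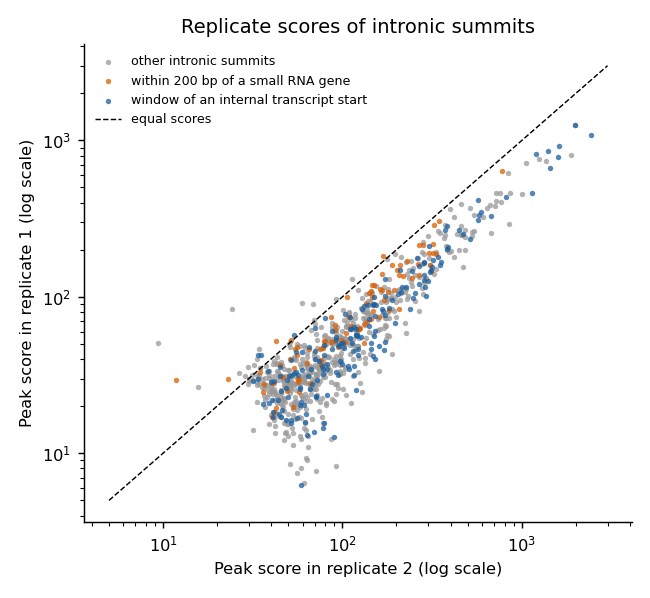
Score of each of the 792 intronic summits matched in both replicate lists, replicate 2 across and replicate 1 up, both on log scales; colours mark summits in the window of an internal transcript start, summits within 200 bp of a small RNA gene and all others, and the dashed line marks equal scores. Most points lie below the line, and the scatter is wider among low scores.

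The 5 largest shifts in rank between replicates were among summits of low to middling score. sma-9, which encodes a Schnurri-type zinc finger protein of body size signalling, had 83.3 in replicate 1 and 24.3 in replicate 2. A weak zfp-1 summit had 50.9 and 9.35. The cytochrome c oxidase subunit gene cox-6B had 8.28 and 92.1, in an annotated intron of 86515 bp. gld-2, a cytoplasmic poly(A) polymerase gene, had 20.9 and 111, and ppfr-1, a regulatory subunit of protein phosphatase 4, had 24.5 and 128. The zfp-1 and ppfr-1 summits each have a peak interval that overlaps that of another summit of the same gene. In all, 22 members overlap another peak of the set, and of these 22, 4 were matched in 1 replicate only.

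The 811 summits lay in 637 host genes, which is 3.44% of the 18526 protein-coding genes with any eligible intron. Eligible intron means bases that meet the same rule, 31.2 Mb in all, so the summits occurred at 26.0 per Mb. A single summit was found in 511 hosts, 2 in 97, 3 in 17 and 4 or more in 12. Hosts were long. Their median length was 6828 bp, against 2177.5 bp for all genes with eligible intron. Their median eligible intron was 4125 bp against 733 bp. A gene with more eligible intron has more room to hold a summit, and the part of this in the length of hosts was not tested.

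The 5 hosts with the most summits were zfp-1, hlh-30, ell-1, fkh-7 and ppfr-1. zfp-1 and hlh-30 had 6 each. The zfp-1 summits scored 1182, 1058, 393, 286, 271 and 70.7, spread from 3415 to 10601 bp from the gene start over 2 introns, and 4 of the 6 had the GA repeat. hlh-30 encodes the TFEB-type factor of lysosome and autophagy genes. Its summits scored 481, 308, 181, 79.4, 66.8 and 60.2, and 3 of the 6 had the E2F consensus. It also had a promoter-window peak of 182. ell-1, an elongation factor gene, had 5 summits from 657 to 60.9 in a single intron of 14129 bp, 4 with the GA repeat. Of these, 3 (scores 396, 195 and 60.9) share an exact run of 31 bases with another intronic summit, so reads may not be assigned uniquely there. The forkhead factor gene fkh-7 had 5 from 193 to 59.6, and ppfr-1 had 5 from 210.1 to 60.9 beside a promoter-window peak of 383.

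Most hosts had no EFL-1 peak at their own start. Of the 637 hosts, 127 (19.9%, 16.9 to 23.3) had a summit in their own promoter window. Over all 19973 protein-coding genes the share was 15.2%, and over genes with eligible intron and no intronic summit it was also 15.2% (14.7 to 15.7). Among genes with 1808 to 8548 bp of eligible intron, the middle range of the hosts, it was 20.4% (16.1 to 25.22) of 319 hosts and 16.3% (15.1 to 17.6) of 3637 other genes, so the intervals overlapped. Where both were present, the intronic summit scored higher in 35 of the 127 hosts.

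First introns held more than their share. The first intron of the host held 286 summits (35.3%, 31.97 to 38.7), whereas first introns make up 22.7% of eligible intron. Introns of rank 5 or later held 28.5% of summits and 37.2% of eligible intron. In density this was 40.4 summits per Mb in first introns, 27.4 in those of rank 2, and between 19.7 and 22.2 in later ranks. Rank was counted in 1 transcript of the host. When the lowest rank over all transcripts was used, 49.1% were in a first intron. By distance from the gene start, density ranged from 22.7 to 30.3 summits per Mb.

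Long introns were the denser ones. Introns over 2000 bp carried 41.5 to 48.5 summits per Mb in each length class, introns of 201 to 2000 bp carried 20.03 to 22.3, and those of up to 200 bp carried 6.77. The median intron with a summit was 2019 bp long. Within the intron, summits were fewer near the splice sites. The first 10% of the intron held 4.81% of summits and the last 10% held 6.29%, and the bins on either side of the middle held 13.2% and 13.1%. In all, 78 of the 811 lay within 100 bp of an intron end. The median score was 139.8 in first introns and 128 in later ones. By length class it ranged from 116.9 in the longest introns to 158 in those of 501 to 1000 bp. By position in the intron it ranged from 104.8 to 155, and by distance from the gene start from 105.1 to 175.5.

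**Figure D3:**
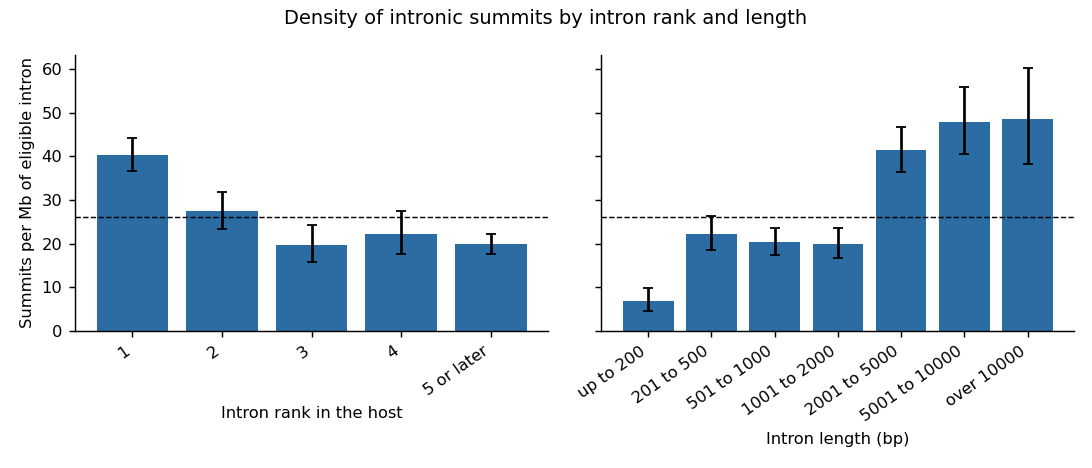
Intronic summits per Mb of eligible intron by intron rank (left) and intron length (right), with exact 95% binomial intervals of each class's share of the 811 summits as error bars and the mean over all eligible intron dashed. First introns stand at 40.4 per Mb and introns over 2000 bp at 41.5 or more, against 26.0 overall.

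Many intronic summits lay at annotated starts of shorter transcripts. The gene start used by the rule is the outermost one, and 181 summits (22.3%, 19.5 to 25.34) fell within the same promoter window drawn around another protein-coding transcript start. All 181 belonged to the host itself, in 177 hosts. Such windows cover 6.64% of eligible intron. The density was 87.4 summits per Mb inside them and 21.6 outside. Their median score was 154 against 126 for the other 630. They made up 9 of the 20 highest-scoring intronic summits, 32 of the top 100 and 14 of the lowest 100.

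These 181 summits lay mainly upstream of the internal start, 172 of them (95.03%), where 84.1% of the eligible bases in such windows lie. The median position was 209 bp upstream. rnr-1, the large subunit of ribonucleotide reductase, is one example at 754 (236 in replicate 1 and 516 in replicate 2). Its summit was in the first intron, 133 bp upstream of an internal start and 6 bp from the E2F match printed above, and its outermost start had no promoter-window peak. rpl-19, a ribosomal protein gene, had 424, placed 245 bp upstream of an internal start. lin-28, the RNA-binding heterochronic regulator, had 636 at 12 bp upstream. Of the 177 hosts, 17.5% also had a promoter-window peak at the outermost start.

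**Figure D4:**
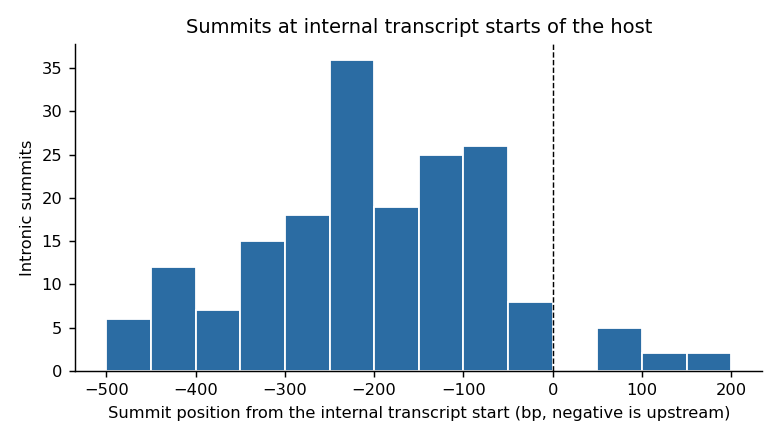
Number of intronic summits by distance from the internal transcript start of the host whose window holds them, in bins of 50 bp, for the 181 such summits; negative distances are upstream. Of these, 172 lie upstream and the median is 209 bp upstream.

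Small RNA genes were near a further group. A tRNA, snoRNA, snRNA or miRNA gene lay within 200 bp of 102 intronic summits (12.6%), against 7.49% of all peaks of the set. The latter share includes the 2401 promoter-window summits, of which 29 were near tRNA, 20 near snoRNA, 5 near snRNA and 5 near miRNA genes. Summits outside protein-coding genes were not counted separately, so nearness to small RNA genes is not shown to be particular to introns. By class, 60 were next to tRNA genes, 31 to snoRNA genes, 8 to snRNA genes and 3 to miRNA genes. Their median scores were 154, 257, 171 and 355. cye-1, which encodes cyclin E, is a host of this kind, with 503 (191 in replicate 1 and 303 in replicate 2) beside a tRNA gene. brd-1, the partner of the BRCA1 homologue, had 357 beside another tRNA gene. The cye-1 and brd-1 summits each share an exact run of 31 bases with another intronic summit, so reads may not be assigned uniquely there. Binding at the small RNA gene and at the host cannot be told apart in such a case. Neither an internal start window nor a small RNA gene was near 538 summits, whose median score was 114.6.

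The E2F consensus was about as common at intronic summits as at promoter-window summits, and commoner than in introns at large. It was found within 100 bp of 138 summits (17.02%, 14.5 to 19.8), against 19.8% (18.2 to 21.4) of promoter-window summits and 7.54% of windows of the same width tiled over all eligible intron. Windows 500 bp to each side of the intronic summits gave 7.52% and 7.40%. The nearest match had a median distance of 33.5 bp from the summit, in a search that reached only 100 bp. A short distance was thus partly fixed beforehand. The form TTCCCGC was found at 46 summits, TTCGCGC at 45, TTGGCGC at 28 and TTGCCGC at 27. The letters read backwards without complementing, a control of the same composition, were found at 9.37% of intronic summits and 2.86% of tiled windows. Flanks gave 2.96% on each side for this control. In relative terms the control rose more than the consensus, so a rise over introns at large was not particular to the consensus. The part of base composition was not tested. Intronic summits above the median score of the set had the consensus in 21.5% and those below in 14.6%, with overlapping intervals.

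The GA repeat was commoner at intronic than at promoter-window summits, with intervals that did not overlap. GAGAGAG occurred within 100 bp of 247 intronic summits (30.5%, 27.3 to 33.8), against 14.9% (13.5 to 16.4) at promoter windows and 2.35% of tiled intron windows. Summits outside protein-coding genes were at 33.2% (30.7 to 35.7). Flanks of the intronic summits were at 3.699% and 4.07%. The share was 30.4% and 30.5% above and below the median score, and 14.1% of the 92 summits near a small RNA gene and outside internal start windows. Introns with such a summit were long, with a median of 3551 bp against 1232.5 bp for the others. Both the E2F consensus and the GA repeat were present at 35 summits, the GA repeat alone at 212 and neither at 461.

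Among the remaining motifs, the Sp1-like CCGCCC was at 10.97% of intronic summits (8.91 to 13.3), 9.08% of promoter-window summits and 3.18% of tiled windows. The CHR, the cell cycle genes homology region bound through another DREAM subunit, was searched as TTCGAA or TTTGAA. It was at 37.6% of intronic summits (34.3 to 41.04), against 52.4% (50.3 to 54.4) at promoter windows and 60.03% of tiled windows. The windows were richer in G and C than intron at large, with a median of 44.3% at intronic summits, 39.8% at promoter-window summits and 31.9% over all eligible intron. The CHR letters read backwards were at 19.2% of intronic summits, 22.1% of promoter-window summits and 40.6% of tiled windows, and the part of base composition in these shares was not tested. Repeat-masked bases were 20.4% of the median intronic window and 51.9% of eligible intron. More than 50% of the window was masked at 14.4% of intronic summits and 21.4% of promoter-window summits. Among intronic summits this was 26.1% of those with the E2F consensus and 12.04% of those without. At the summits printed above with an E2F match, masking ran from 20.9% at rnr-1 to 94.5% at Y75B8A.25. Whether reads are placed uniquely in masked windows was not tested.

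**Figure D5:**
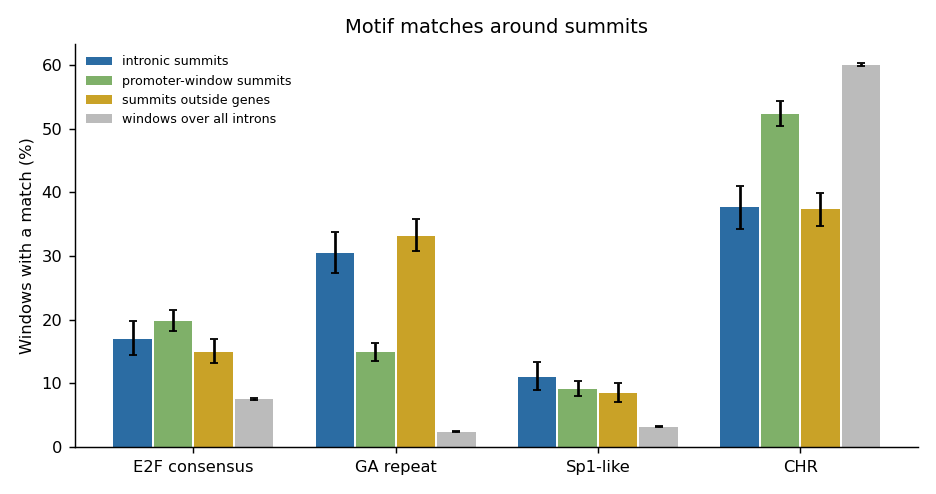
Percent of 201 bp windows with a match to each motif, for intronic summits, promoter-window summits, summits outside protein-coding genes and windows tiled over all eligible introns; error bars are exact 95% binomial intervals. The GA repeat is at 30.5% of intronic and 14.9% of promoter-window summits, while the CHR is at 37.6% and 52.4%.

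The cell cycle, replication, ribosomal protein and chromatin lists were read against 15.2% of all genes with a promoter-window summit and 3.44% with an intronic one. Of 38 DREAM and cell cycle genes with eligible intron, 2 were hosts (5.26%), while 16 (42.1%) had a promoter-window summit. The hosts were cye-1 and cdk-2, the kinase gene, which had 165 in the intron and 289 at the promoter. Of 49 replication and repair genes, 5 were hosts (10.2%) and 36 (73.5%) had a promoter-window summit. They included rnr-1, rad-50 with 425 and brd-1. Of 58 ribosomal protein genes with eligible intron, rpl-19 was the only host, whereas 58 of the 66 matched ribosomal protein genes (87.9%) had a promoter-window summit. Of 71 chromatin regulators with eligible intron, 3 were hosts (4.23%), and 35 of the 72 matched had a promoter-window summit. These were pbrm-1, a SWI/SNF subunit gene, with 757, dot-1.1, a histone H3 methyltransferase gene, with 378, and ssl-1, a chromatin remodelling ATPase gene, with 332.

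Of the 13 lists, 11 had a larger share of hosts than the 3.44% of all genes, and most hold genes with more eligible intron than the 733 bp median of all genes. Per Mb of eligible intron, 9 of the 13 had more summits than all genes. Of 51 chosen nuclear hormone receptors, 12 were hosts (23.5%, 12.8 to 37.5). They had 94.2 summits per Mb of their eligible intron against 26.0 over all genes. The list is a chosen part of a larger family, so these values do not describe the family. nhr-19 with 704, nhr-46 with 418 and nhr-34 with 207 scored highest. Homeobox and other developmental transcription factors were hosts in 15 (14.9%) of those with eligible intron and had 53.9 summits per Mb, while 8 genes of the list had a promoter-window summit. mef-2 had 474, daf-16, the FOXO factor of insulin signalling, 439 and skn-1, the Nrf-type stress factor, 378. Growth factor, Notch, Wnt, TGF-beta and insulin signalling genes were hosts in 13 of 84, at 52.2 summits per Mb. let-363, which encodes the TOR kinase, had 706, daf-14, a SMAD, 476 and daf-5, a Sno/Ski-type protein of TGF-beta signalling, 468.

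Neuronal and structural genes ranged from below to above the 3.44% of hosts and the 26.0 summits per Mb of all genes. Synaptic vesicle and signalling genes were hosts in 13 of 63, at 42.7 summits per Mb, with gsa-1, the Gs alpha subunit, at 341, egl-4, a cGMP-dependent kinase, at 249 and unc-41, a stonin, at 229. Ion channels and receptors were hosts in 3 of 98 (3.06%), at 6.34 per Mb, namely glr-2 with 145, npr-5 with 89.6 and trpa-1 with 67.4. Axon guidance, adhesion and matrix genes were hosts in 8 of 77, at 15.99 per Mb. gon-1, a secreted metalloprotease, had 206, hmr-1, a cadherin, 179 and unc-33, which organises neuronal microtubules, 173. Muscle and cytoskeleton genes were hosts in 6 of 73, at 24.8 per Mb, led by vab-10 with 313, dys-1 with 141 and unc-70 with 128.

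RNA-binding and splicing regulators were hosts in 8 of 66, at 48.6 per Mb, with lin-28, larp-1 at 602 and smg-2 at 582 scoring highest. Cuticle collagens were hosts in 3 of 80, col-72 with 520.3, col-85 with 369 and col-99 with 181, and the last 2 lie beside tRNA genes. The 89.95 per Mb of this list rests on 3 summits in 0.0334 Mb. Lists this small carry wide intervals, no list was tested, and eligible intron per gene differs between them.

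Near the edge of the promoter window the division was not sharp. Between 101 and 200 bp downstream of a gene start, just inside the window, there were 24 summits with a median score of 109 and a range of 63.7 to 2238. Between 201 and 300 bp, just outside it, there were 25 intronic summits with a median of 180.4 and a range of 62.3 to 2381.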

How the data were processed

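ChIP-seq peaks were analysed on ce11 (WBcel235) with gene models of Ensembl release 115 over 6 nuclear chromosomes and the RefSeq sequence. Per the text deposited with the samples, the authors called relaxed lists of peaks and background on each replicate and on pooled reads, with a control, and a set thresholded by the irreproducible discovery rate (IDR). That set equalled the top 4835 peaks of the pooled list. Names of the aligner and peak caller were not given in the sources used here, and the control was not analysed here. Each peak has a score deposited by the authors, of unstated scale, and a deposited −log10 q, which was 4.04 throughout the set and not used. Peak lists hold no read numbers, so depth is unknown.

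Summits were classified by the stated rule. Excluding every annotated exon gave 811, and excluding only protein-coding exons gave 923. Motifs were searched in 201 bp windows. Replicate summits were matched within 100 bp. Scripts were tested on simulated data. Python 3.11.15, numpy 2.4.6, scipy 1.17.1, pandas 2.3.3 and matplotlib 3.10.9 were used. Peaks are not replicates, so values are described with exact 95% binomial intervals, which cover counting error only, and no test was run. Members and gene lists were chosen with earlier results of these data known.

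Named hosts are those of the 20 highest-scoring intronic summits, the 5 with most summits, the 5 with the largest rank difference between replicates, the top 3 of each list, and the 10 highest-scoring summits with the E2F consensus. nova-1 and lron-13 were added for display after the values were seen. Alternatives changed the promoter window, the exons excluded, the score threshold, the replicates used, the matching distance, the motif distance and the transcript that gives the intron rank.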

Additional observations from a re-analysis of the deposited data

How the results depend on the processing

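No paired analysis was possible because the series has 1 group. A share or median is called moved here when it shifted by more than the SD between the replicates' own top lists (0.0157 to 1.58 percentage points), or, for replicate matching, left its exact interval. A count of summits is called moved past a ratio of 1.5. Each SD rests on 2 values, and where these nearly coincided even a small shift is called moved. One such shift is from 35.3% to 35.2% in first introns when only protein-coding exons were excluded. The tally of moved values is thus no measure of robustness. Of 59 alternative values, 14 shares or medians and 6 counts did not move; the cause of each shift was not tested beyond what the alternative itself changes. Leaving out either replicate gave 800 to 839 summits, 16.5 to 17.4% of peaks, 36.35 to 36.4% in first introns, a median score percentile of 35.8 to 38.1, 17 to 17.04% with the E2F consensus, 19.8 to 21.3% of hosts with a promoter summit and 22.3 to 23.9% at internal starts.

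With a window of 300 bp upstream and 100 bp downstream, intronic summits were 17.6% of peaks, 36.9% in first introns, 17.4% with the consensus, 14.7% of hosts with a promoter summit and 17.6% at internal starts. With 1000 and 500 bp these were 14.8%, 31.1%, 16.3%, 28.9% and 31.6%. With windows around every transcript start they were 13.03%, 29.5% and 17.3%, then 21.4% of hosts, and the score percentile was 36.3. With only protein-coding exons excluded, they were 19.1%, 35.2%, 16.03% and, at internal starts, 21.1%. The higher-scoring 2417 peaks held 289 intronic summits, 11.96% of peaks, with a percentile of 36.6, 40.1% in first introns, 21.5% with the consensus, 99.7% matched, 13.6% of hosts and 26.99% at internal starts. The lowest and highest intron rank over transcripts gave 49.1% and 34.5% in first introns. Motif distances of 50 and 200 bp gave 11.6% and 22.6%. Matching within 50 and 200 bp gave 86.1% and 99.5%. Depth is unknown, so the precision of weak summits could not be given.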

Other observations

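Intronic summits were unevenly spread over the chromosomes. Chromosome III had 38.5 per Mb of eligible intron and chromosome V 17.6. The X chromosome had 11.7, with 60 summits, against 28.8 on the autosomes. Of all peaks on X, 13.3% (10.3 to 16.8) were intronic, against 17.1% (16.02 to 18.3) on autosomes.

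Where the GA repeat lay on 1 strand only, it was on the strand opposite to the host at 150 of 222 summits (67.6%, 60.98 to 73.7). In tiled intron windows the figure was 57.8% (56.1 to 59.4). The repeat was mostly short, with a median of 9 bases covered by matches and a single match of 7 bases at 117 summits. The nearest match was repeat-masked at 35.2%.

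Exact runs of 31 bases were shared with another intronic summit by 85 members, 43 of them within 200 bp of a small RNA gene. Among named hosts, the members include the dhc-4, rpom-1, cye-1, brd-1, daf-16, col-85 and gsa-1 summits scored above, besides those of ell-1. Reads from such copies can be placed at more than 1 of them, and how they were handled is not stated in the labels or the deposited text, so their part in the scores was not tested. The 85 members had a median score of 153, against 128.99 for the other members of the 811.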
